A study of Mus musculus with 12 samples.

Results

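The 8 genes described here, Higd1b, Cox4i2, Ndufa4l2, Cspg4, Olfr558, Trarg1, Rasl12 and Map3k7cl, are markers of pericytes, and they were chosen by symbol for being near absent outside 1 of 4 sorted stromal populations. They are 8 of 55487 genes in the table. The choice used their levels in these same libraries, so the difference between vcaf and the other populations is given for them as a description, with no test. The genes they are set beside (paralogs, neighbours and related genes) and the differences among the other 3 populations were not part of the choice.

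Tumours came from 3 untreated FVB mice at 10 weeks of age, all carrying MMTV-PyMT, a transgene that expresses polyoma middle T from a mouse mammary tumour virus promoter. Live stromal cells with PDGFRb on their surface were sorted after cells stained for CD45, CD31 or EPCAM were gated out. Within them, vcaf carried CD146 and lacked both Ly6C and PDGFRa. The icaf cells carried Ly6C. Cells with PDGFRa but without Ly6C or CD146 were split by NCAM into m2cafpos (with NCAM) and m2cafneg (without). Each of the 4 populations has 1 library from each mouse (27, 30 and 31), 12 libraries in all, with 43898839 to 55363203 reads per library, so that 1 read is worth 0.0181 to 0.0228 CPM, the authors' unit of reads scaled to a common library total.

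Pericytes are contractile cells that wrap capillaries and share a basement membrane with the endothelium. They regulate vessel tone and stability, and in bulk tissue they are told from fibroblasts by a small set of genes, since both express PDGFRb. Several of these genes are isoforms of proteins of the mitochondrial respiratory chain whose common forms are made in nearly every cell. Others encode surface proteins, receptors and small regulators whose role in pericytes is little described.

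The libraries carried the sort in their RNA. Mcam, which encodes CD146, averaged 269 CPM in vcaf, 3.44 in icaf, 4.16 in m2cafpos and 9.82 in m2cafneg, and Pdgfra averaged 6.73 CPM in vcaf against 403 to 537 CPM in the others. RNA of the excluded cell types remained in all 4 populations: summed markers of epithelial cells reached 6699 to 13355 CPM in vcaf, 883 to 2567 in icaf, 524 to 2476 in m2cafpos and 4599 to 10269 in m2cafneg, and summed macrophage markers 476 to 1249, 79.8 to 190, 132 to 220 and 533 to 867 CPM in the same order. Of the markers, 8 of 8 epithelial, 7 of 7 macrophage and 7 of 9 endothelial genes were higher in vcaf than in the mean of the others. All 6 of 6 fibroblast genes were lower. Over all genes tested, 53.3% were higher and 14.2% lower. With median-of-ratios scaling of the libraries, 7 of 8 epithelial, 6 of 7 macrophage and 7 of 9 endothelial genes were higher. The part of these cell types in the levels below was not tested. The vcaf gate also held smooth muscle RNA, with the actin gene Acta2 at 1921 CPM, so pericytes and vascular smooth muscle cells cannot be told apart within it. In bulk libraries, fewer cells of a type and less RNA per cell cannot be told apart.

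The sequences that bear on these genes are the promoters in RefSeq and, for the pair of paralogs closest in sequence over a long run, the coding sequences. RefSeq on GRCm38.p6 gave promoters for 3 of the 8 genes, each running from 250 bases before to 50 after the RefSeq gene start on the plus strand, which differs from the GENCODE start printed with each gene below: chr9:56864854-56865153 for Cspg4, chr7:102702073-102702372 for Olfr558 and chr9:65398238-65398537 for Rasl12. Capitals mark TGGGAA, the core bound by the Notch effector RBPJ, and GCGTG, a core bound by hypoxia-inducible factors, on either strand.
Cspg4: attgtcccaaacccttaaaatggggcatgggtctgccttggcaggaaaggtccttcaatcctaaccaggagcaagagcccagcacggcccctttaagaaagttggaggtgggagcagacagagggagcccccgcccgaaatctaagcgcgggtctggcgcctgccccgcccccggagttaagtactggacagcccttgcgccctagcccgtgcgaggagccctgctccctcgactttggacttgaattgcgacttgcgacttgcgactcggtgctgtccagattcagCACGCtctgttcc
Olfr558: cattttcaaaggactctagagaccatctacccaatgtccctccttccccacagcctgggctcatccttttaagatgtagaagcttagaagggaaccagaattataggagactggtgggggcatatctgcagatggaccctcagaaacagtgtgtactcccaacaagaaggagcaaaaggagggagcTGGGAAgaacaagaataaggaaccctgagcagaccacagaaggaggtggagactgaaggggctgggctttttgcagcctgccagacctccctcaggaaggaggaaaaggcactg
Rasl12: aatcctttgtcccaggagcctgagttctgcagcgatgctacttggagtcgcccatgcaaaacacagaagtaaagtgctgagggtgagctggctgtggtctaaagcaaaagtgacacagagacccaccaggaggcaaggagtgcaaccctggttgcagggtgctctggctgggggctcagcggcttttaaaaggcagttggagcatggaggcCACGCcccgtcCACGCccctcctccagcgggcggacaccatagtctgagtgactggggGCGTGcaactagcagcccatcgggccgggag
TGGGAA occurred 1 time in the Olfr558 window and in neither of the others, and 25.6% of 27025 promoters of the same length hold it. GCGTG occurred 1 time for Cspg4 and 3 times for Rasl12, and 32.2% of promoters hold it. The E-box CANNTG, which shares the letters CACGTG with ACGTG, occurred 1 time each for Olfr558 and Rasl12, against 72.3% of promoters. ACGTG (19.5% of promoters), the CArG box of smooth muscle genes (1.54%) and GGAATG (14.6%), bound by TEAD factors, were not in these 3 windows. All were searched on both strands.

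Higd1b (ENSMUSG00000020928) encodes a small protein of the mitochondrial HIG1 domain family. It lies on chromosome 11 from 102835849 to 102838040 on the plus strand (GRCm38, GENCODE annotation, as for all positions of genes given here). Its level was 551, 547 and 416 CPM in vcaf of mice 27, 30 and 31, against 0.152, 0.531 and 1.11 CPM in icaf, 0.0361, 0.334 and 0.615 CPM in m2cafpos, and 0.718, 0.45 and 4.27 CPM in m2cafneg. The lowest vcaf library stood 97.2-fold above the highest other library, the m2cafneg library of mouse 31. The mean was 505 ± 77.1 CPM in vcaf (SD, n = 3), which is 845-fold that of icaf, 1537-fold that of m2cafpos and 278-fold that of m2cafneg.

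Cox4i2 (ENSMUSG00000009876) encodes the second isoform of subunit 4 of cytochrome c oxidase, complex IV of the respiratory chain, known from lung and from oxygen sensing. Its gene is on chromosome 2 from 152754173 to 152765037 on the plus strand. It measured 281, 214 and 240 CPM in vcaf, 0.589, 0.314 and 1.82 CPM in icaf, 0.181, 0.0556 and 1.09 CPM in m2cafpos, and 0.762, 0.877 and 3.57 CPM in m2cafneg. In each of the 3 populations outside vcaf the library of mouse 31 was the highest. The vcaf mean of 245 ± 33.7 CPM (SD, n = 3) was 269-fold that of icaf, 552-fold that of m2cafpos and 141-fold that of m2cafneg.

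Ndufa4l2 (ENSMUSG00000040280) encodes a paralog of the complex IV subunit NDUFA4 and is a known target of hypoxia-inducible factor. The gene spans chromosome 10 from 127514967 to 127517154 on the plus strand, and its annotated end overlaps that of Shmt2 on the opposite strand by 32 bases. Its level was 1079, 985 and 846 CPM in vcaf, 15.2, 9.14 and 14.97 CPM in icaf, 32.9, 35.2 and 39.0 CPM in m2cafpos, and 57.7, 25.7 and 66.4 CPM in m2cafneg. It averaged 970 ± 117 CPM in vcaf (SD, n = 3), but it was not near absent elsewhere: all 9 other libraries were at 9.14 CPM or more. The vcaf mean was 74.0-fold that of icaf, 27.2-fold that of m2cafpos and 19.4-fold that of m2cafneg. Whether counting used strand is not given in the sources used here; Shmt2 averaged 149 CPM in vcaf, and reads in the overlap cannot be told apart.

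Cspg4 (ENSMUSG00000032911) encodes the NG2 proteoglycan, a long-used surface marker of pericytes that oligodendrocyte precursors also carry. Cspg4 occupies chromosome 9 from 56865033 to 56899870 on the plus strand. It measured 322, 273 and 242 CPM in vcaf, 5.98, 4.97 and 8.20 CPM in icaf, 69.6, 61.3 and 73.0 CPM in m2cafpos, and 39.4, 14.1 and 40.01 CPM in m2cafneg. The groups did not overlap between vcaf and the rest, but the lowest vcaf library was only 3.31-fold above the highest other one, in m2cafpos. Its vcaf mean of 279 ± 40.6 CPM (SD, n = 3) was 43.7-fold that of icaf, 4.11-fold that of m2cafpos and 8.95-fold that of m2cafneg, so by these values Cspg4 was enriched in vcaf rather than restricted to it.

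Olfr558 (ENSMUSG00000070423) encodes an olfactory receptor, a G protein-coupled receptor of the family that detects odorants in the nose. Olfr558 spans chromosome 7 from 102702215 to 102712064 on the plus strand. It had 314, 273 and 276 CPM in vcaf, 0.266, 0.413 and 1.64 CPM in icaf, 0.108, 0.185 and 0.478 CPM in m2cafpos, and 0.261, 0.36 and 2.17 CPM in m2cafneg. The lowest vcaf library was 126-fold above the highest other one, the second-largest such ratio among 9407 genes with a vcaf mean of at least 10 CPM. The vcaf mean of 288 ± 23.0 CPM (SD, n = 3) was 372-fold that of icaf, 1118-fold that of m2cafpos and 310-fold that of m2cafneg, and the vcaf libraries varied least, relative to their mean, of the 8 genes.

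Trarg1 (ENSMUSG00000046275) encodes a membrane protein of the dispanin family that regulates traffic of the glucose transporter GLUT4 and is known from adipose tissue and muscle. It lies on chromosome 11 from 76679808 to 76698664 on the plus strand. Its level was 956, 985 and 635 CPM in vcaf, 9.97, 2.24 and 12.2 CPM in icaf, 0.921, 3.49 and 2.67 CPM in m2cafpos, and 7.95, 12.4 and 10.5 CPM in m2cafneg. The vcaf mean of 859 ± 194 CPM (SD, n = 3) was 106-fold that of icaf, 364-fold that of m2cafpos and 83.5-fold that of m2cafneg. Of adipocyte markers, Fabp4, which capillary endothelium also expresses, averaged 460.5 CPM in vcaf, while Plin1, Lep, Retn and Adrb3 were under 1 CPM in every library and Adipoq averaged 1.27 CPM in vcaf. With median-of-ratios scaling, Plin4 and Cidec were at log2 fold changes of 0.12 and 0.79 in vcaf against the others and were not called. Cidec had fewer than 3 libraries outside vcaf at 1 CPM.

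Rasl12 (ENSMUSG00000041696) encodes a small RAS-like GTPase. Rasl12 is on chromosome 9 from 65398506 to 65414853 on the plus strand. It measured 318, 278 and 203 CPM in vcaf, 0.513, 0.688 and 2.02 CPM in icaf, 1.30, 1.15 and 2.07 CPM in m2cafpos, and 0.588, 1.21 and 3.74 CPM in m2cafneg. The vcaf mean of 266 ± 58.0 CPM (SD, n = 3) was 248-fold that of icaf, 177-fold that of m2cafpos and 144-fold that of m2cafneg.

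Map3k7cl (ENSMUSG00000025610) encodes a short protein resembling the carboxyl end of the kinase TAK1, the product of Map3k7, without its kinase domain. Its gene runs along chromosome 16 from 87553330 to 87595336 on the plus strand. It measured 115, 178 and 113 CPM in vcaf, 1.82, 1.43 and 2.04 CPM in icaf, 0.813, 1.78 and 0.547 CPM in m2cafpos, and 0.348, 0.202 and 2.07 CPM in m2cafneg. It averaged 135 ± 37.1 CPM in vcaf (SD, n = 3) and was the most variable of the 8 there relative to its mean, the library of mouse 30 lying above the others. The vcaf mean was 76.6-fold that of icaf, 129-fold that of m2cafpos and 155-fold that of m2cafneg.

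**Figure D1:**
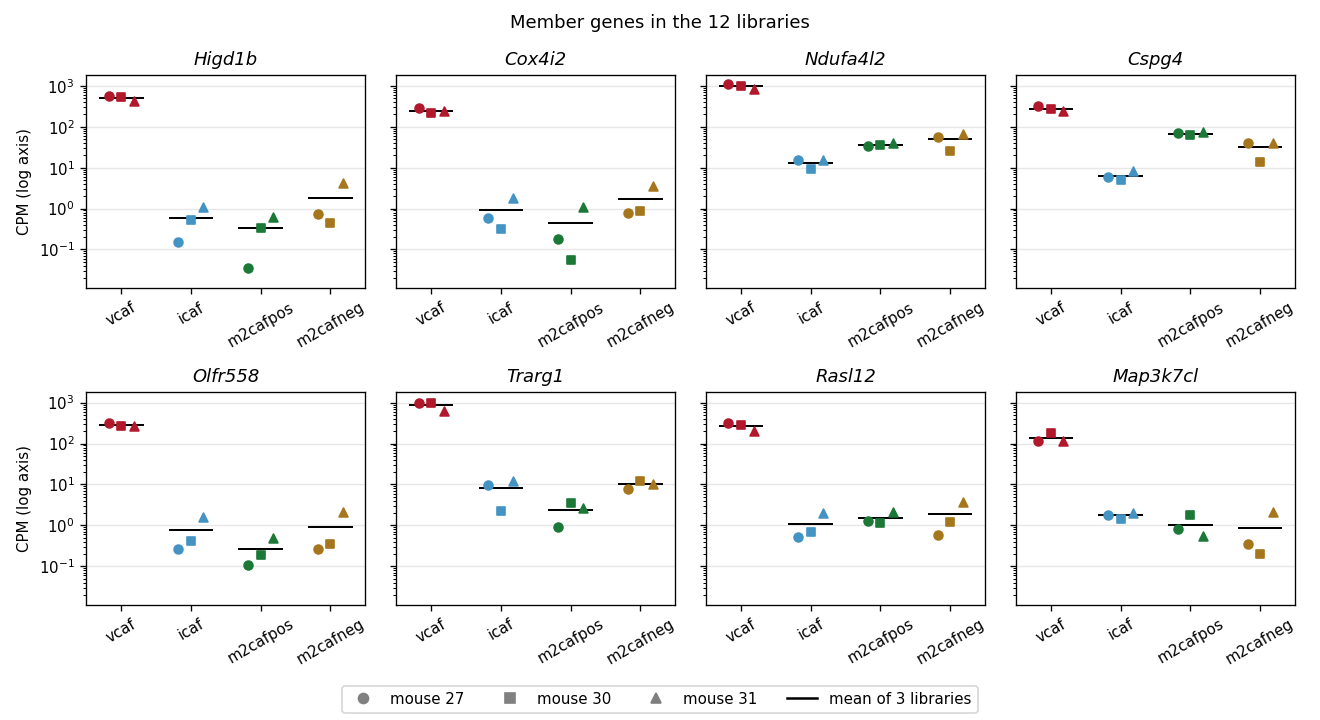
CPM on a log axis of each of the 8 genes in the 12 libraries, by population, with 1 symbol per mouse and a bar at the mean of 3 libraries. The vcaf libraries lie above all 9 others for every gene, with the smallest gap for Cspg4, where m2cafpos averaged 68.0 CPM against 279 CPM in vcaf.

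All 8 genes passed the filter of at least 1 CPM in at least 3 libraries, which the 3 vcaf libraries alone met for each of them. All 3 vcaf libraries stood above all 9 others for each of the 8, which the choice of genes fixed; the same held for 25.8% of 15456 genes tested. The difference between vcaf and the mean of the others on the log2(CPM + 1) scale ran from 3.51 for Cspg4 to 8.22 for Higd1b, and from 3.10 to 7.88 with median-of-ratios scaling, higher in vcaf for all 8 under both. Ranked by the ratio of the lowest vcaf library to the highest other library among 9407 genes, Olfr558 stood at place 2, Higd1b at 6, Cox4i2 at 18, Map3k7cl at 20, Rasl12 at 21, Trarg1 at 25, Ndufa4l2 at 75 and Cspg4 at 215. Rgs5, a widely used pericyte marker that averaged 41419 CPM in vcaf and is added here after its values were seen, stood at place 8. Serpina1a, Trpc6, Gabrr1 and Stac, at places 1, 3, 4 and 5 and named here after their values were seen, ranked beside them by this ratio.

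Per kilobase of exon, the vcaf level was highest for Ndufa4l2 at 886 CPM per kb, followed by Higd1b at 596, Cox4i2 at 311, Trarg1 at 260.1, Olfr558 at 94.6, Map3k7cl at 81.9, Rasl12 at 40.5 and Cspg4 at 23.4 CPM per kb. Exon length here counts every annotated exon of a gene, used or not, so values per kb depend on the annotation too. Neighbours in this order overlapped between libraries for 2 pairs: Cox4i2 with Trarg1, and Olfr558 with Map3k7cl. For every other pair of neighbours the 3 vcaf libraries did not overlap.

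Each library outside vcaf was then set against the vcaf library of the same mouse, with exact Poisson intervals that cover counting error of the library outside vcaf only. Higd1b was at 0.00655% of vcaf in m2cafpos of mouse 27, from 2 reads (95% interval 0.000793 to 0.0237%), and at 1.03% in m2cafneg of mouse 31. Higd1b, Cox4i2, Olfr558 and Rasl12 stayed between 0.00655% and 1.84% in all 9 libraries, a range that holds Rgs5 at 0.0329% to 1.15%. Trarg1 lay between 0.0963% and 1.92%, and Map3k7cl between 0.114% and 1.83%. Ndufa4l2 was at 0.928% to 1.77% in icaf, within the range of Trarg1 and Map3k7cl, and at 3.05% to 4.61% in m2cafpos and 2.61% to 7.85% in m2cafneg, above both. Cspg4 was highest, at 1.82% to 3.39% in icaf, 21.6% to 30.2% in m2cafpos and 5.14% to 16.6% in m2cafneg. In m2cafpos of mouse 27, Cspg4 at 21.6% (20.9 to 22.3%) and Higd1b at 0.00655% came from the same library, so the 8 genes were not in 1 ratio to their vcaf levels.

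The m2cafneg library of mouse 31 held the highest value outside vcaf for 6 of the 8 genes; for Cspg4 it was m2cafpos of mouse 31 and for Trarg1 m2cafneg of mouse 30. Higd1b, Cox4i2, Cspg4, Olfr558 and Rasl12, 5 of the 8, were highest in mouse 31 within each of the 3 populations outside vcaf, as was Rgs5, at 118 CPM in icaf, 65.4 in m2cafpos and 357 CPM in m2cafneg of that mouse. Among the m2cafneg libraries, that of mouse 31 also had the highest sums of endothelial markers (258 CPM, against 76.0 and 130 CPM in m2cafneg of mice 27 and 30), skeletal muscle markers (144 CPM, against 10.0 and 5.11 CPM) and epithelial markers (10269 CPM, against 6192 and 4599 CPM). The part of these cells in the values was not tested.

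**Figure D2:**
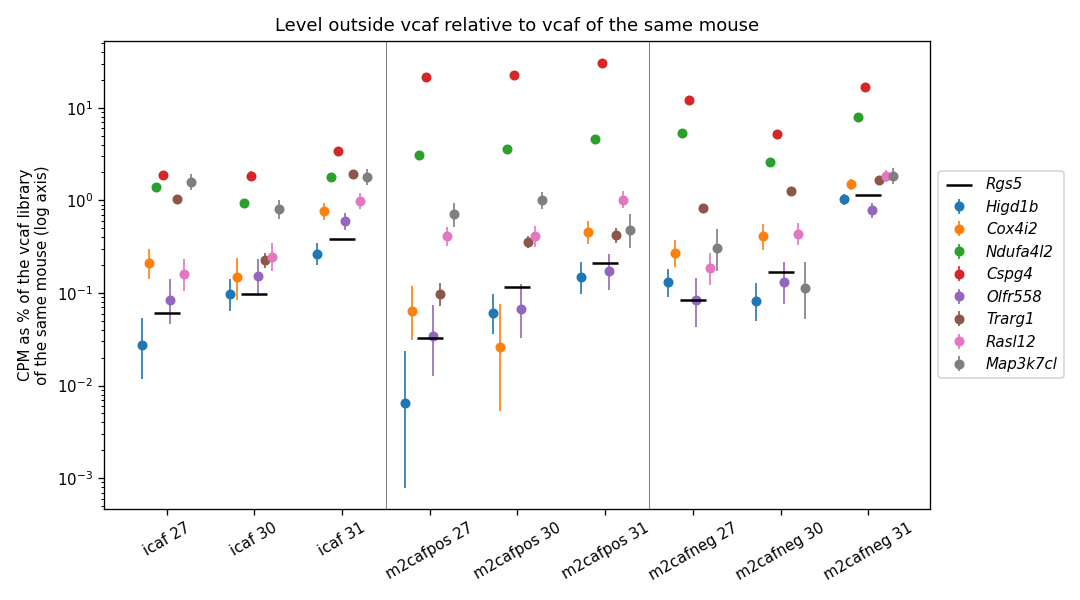
CPM in each library outside vcaf as a percentage of the vcaf library of the same mouse, on a log axis, with 95% Poisson intervals for the 8 genes and a black dash for Rgs5. Cspg4 and Ndufa4l2 lie above the others in the m2cafpos and m2cafneg libraries, and Higd1b reaches its lowest share, 0.00655%, in m2cafpos of mouse 27.

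Among icaf, m2cafpos and m2cafneg, where the choice of genes set no direction, Cspg4 differed in every pair, Ndufa4l2 was lower in icaf than in either m2caf gate, and Trarg1 was lower in m2cafpos than in m2cafneg. Cspg4 averaged 68.0 ± 6.03 CPM in m2cafpos and 31.2 ± 14.8 CPM in m2cafneg (SD, n = 3 each). Its log2 fold change on the log2(CPM + 1) scale was 1.23 (SE 0.31, limma, Benjamini-Hochberg adjusted p = 0.0147 over 15456 genes), and the 3 m2cafpos libraries lay above the 3 m2cafneg libraries. Trarg1 averaged 2.36 ± 1.31 CPM in m2cafpos and 10.3 ± 2.23 CPM in m2cafneg, which gave -1.82 on the log2 scale (SE 0.46, limma adjusted p = 0.0140), again without overlap. Of the 8 genes, 1 was higher and 1 lower in m2cafpos, against 26.1% of all genes called in either direction in that comparison, 3.51% higher and 22.6% lower. The median over the 8 was -0.43, beside -0.23 over all genes tested.

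The Trarg1 call did not hold without the m2cafpos library of mouse 27 (adjusted p = 0.0619), and both calls missed the threshold when every gene with a read was tested (0.0537 for Cspg4 and 0.0526 for Trarg1). Ndufa4l2 passed only without the m2cafneg library of mouse 30 (-0.78, limma adjusted p = 0.0172), and Cox4i2, at -0.85 with adjusted p = 0.128, passed with the mouse as a block (adjusted p = 0.0228). Adipocyte markers summed to 7.53 to 26.5 CPM in m2cafpos against 32.3 to 95.6 CPM in m2cafneg, in the direction of Trarg1. In vcaf most of the adipocyte sum was Fabp4, which capillary endothelium also expresses. Of 8 adipocyte markers, 3 were tested and 1 was lower in m2cafpos, beside 22.6% of all genes. With median-of-ratios scaling 0 were lower, beside 1280 of 15456 genes. Markers of Schwann cells and oligodendrocyte precursors summed to 24.01 to 41.2 CPM against 70.0 to 128 CPM, opposite to Cspg4. Olig1 and Olig2 were under 1 CPM in every library. Epithelial, macrophage and endothelial sums were also lower in m2cafpos than in m2cafneg. The part of these cells in the 2 calls was not tested.

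Between icaf and m2cafneg, Cspg4 averaged 6.38 ± 1.65 CPM in icaf and 31.2 ± 14.8 CPM in m2cafneg, a difference of -2.01 on the log2 scale (SE 0.31, limma adjusted p = 0.000597). Ndufa4l2 averaged 13.1 ± 3.44 CPM in icaf and 49.9 ± 21.4 CPM in m2cafneg, a difference of -1.78 on the log2 scale (SE 0.29, limma adjusted p = 0.000755). In both genes every icaf library lay below every m2cafneg library. These were 2 of 8 lower and 0 higher, against 29.7% of all genes called in this comparison, 20.9% lower and 8.77% higher, and the median over the 8 was -0.49 beside -0.12 over all genes. Map3k7cl passed only without the m2cafneg library of mouse 31, where its log2 fold change was 1.11 (adjusted p = 0.0151) in place of 0.69 (0.149).

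Between icaf and m2cafpos, Cspg4 averaged 6.38 ± 1.65 CPM in icaf and 68.0 ± 6.03 CPM in m2cafpos, which is -3.24 on the log2 scale (SE 0.31, limma adjusted p = 1.4e-05). Ndufa4l2 averaged 13.1 ± 3.44 CPM in icaf and 35.7 ± 3.06 CPM in m2cafpos, which is -1.41 (SE 0.29, limma adjusted p = 0.00337). Again 2 of 8 were lower and 0 higher, against 23.9% of all genes called in either direction, 8.86% lower and 15.0% higher, with a median of 0.32 over the 8 and 0.11 over all genes. Trarg1 was at 1.30 with adjusted p = 0.0575; it passed without the icaf library of mouse 30 (1.93, adjusted p = 0.00179) or the m2cafpos library of mouse 30 (1.55, adjusted p = 0.0492), and with DESeq2 on reads (0.0389). Higd1b, Cox4i2, Olfr558 and Rasl12 passed in none of the 3 pairs under any setting run, except Cox4i2 with the mouse as a block; most of their values were near or under 2 CPM, where the pseudocount of 1 CPM understates a change.

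Some other pericyte genes also differed among these 3 populations. Of 18, 1 was higher and 6 lower in m2cafpos than in m2cafneg (median -0.56, against -0.23 over all genes), or 1 and 8 with the mouse as a block, while after median-of-ratios scaling 3 were lower, as many as without the m2cafneg library of mouse 31. Against m2cafneg, 5 were higher and 5 lower in icaf (5 and 6 with the block), and against m2cafpos 6 were higher and 5 lower in icaf (8 and 6 with the block). Over all genes, without the block, 3.51% were higher and 22.6% lower in m2cafpos than in m2cafneg. In icaf, 8.77% of all genes were higher and 20.9% lower than in m2cafneg, and 15.0% higher and 8.86% lower than in m2cafpos. Kcnj8, a potassium channel subunit, was higher in icaf than in m2cafneg (2.28, limma adjusted p = 0.000249), while Heyl, a Notch target, was lower there (-3.47, adjusted p = 0.000263). Vtn, which encodes vitronectin, was lower in m2cafpos than in m2cafneg (-3.28, adjusted p = 7.3e-05), and Rgs4, a regulator of G-protein signalling, was higher (1.85, adjusted p = 0.00224).

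For 5 of the 8 genes, a paralog outside the 8 was set beside the gene: Higd1a, Cox4i1, Ndufa4, Olfr78 and Map3k7. Relatives of Trarg1 and Rasl12 are given as lists further below. The paired paralogs, except Olfr78, were tested in vcaf, with the mean of the other 3 populations as the reference. Over all genes, limma called 67.5% of 15456 in this comparison, 53.3% higher and 14.2% lower, with a median log2 fold change of 0.38. With median-of-ratios scaling that median was 0.02 and the share of calls that were higher was 49.0% in place of 79.0%. That scaling called 3648 genes higher and 3797 lower. Changes and list counts are read relative to that shift.

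Cox4i1, the common isoform of complex IV subunit 4, averaged 570 ± 72.7 CPM in vcaf, 370 ± 17.6 CPM in icaf, 310 ± 40.4 CPM in m2cafpos and 365 ± 23.3 CPM in m2cafneg (SD, n = 3 each). Its log2 fold change was 0.71 (SE 0.10, limma adjusted p = 7.2e-05), and 0.29 (adjusted p = 0.0327) with median-of-ratios scaling. Per kilobase of exon, Cox4i2 stood at 72.7% to 112% of Cox4i1 in the 3 vcaf libraries, 0.160% to 1.02% in icaf, 0.0379% to 0.752% in m2cafpos and 0.400% to 1.84% in m2cafneg. On this scale, which divides by all annotated exon bases, the 2 isoforms were within the same range in vcaf. In CPM they were not, with a vcaf mean of 245 for Cox4i2 against 570 for Cox4i1. Their coding sequences are 519 and 510 bases long. In the 9 other libraries Cox4i2 was at most 1.84% of Cox4i1 per kilobase.

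Ndufa4 averaged 105 ± 16.1 CPM in vcaf, 110 ± 24.5 in icaf, 84.2 ± 13.8 in m2cafpos and 110 ± 20.6 CPM in m2cafneg, at 0.07 on the log2 scale (SE 0.16, limma adjusted p = 0.718), which turned to -0.35 (adjusted p = 0.0866) with median-of-ratios scaling. Per kilobase, Ndufa4l2 was 8.66-fold to 14.6-fold Ndufa4 in vcaf, and below it in all 9 other libraries, at 9.76% to 22.9% in icaf, 41.9% to 61.6% in m2cafpos and 37.4% to 70.0% in m2cafneg. The coding sequences of the 2 genes, from the GENCODE transcripts on GRCm38, are shown because reads from a stretch they share could be counted for either. They are 264 and 249 bases long and identical at 71.9% of 242 aligned bases, and capitals mark the longest exact run they share, 28 bases; Ndufa4 lies on chromosome 6 from 11900292 to 11907497 on the minus strand.
Ndufa4l2: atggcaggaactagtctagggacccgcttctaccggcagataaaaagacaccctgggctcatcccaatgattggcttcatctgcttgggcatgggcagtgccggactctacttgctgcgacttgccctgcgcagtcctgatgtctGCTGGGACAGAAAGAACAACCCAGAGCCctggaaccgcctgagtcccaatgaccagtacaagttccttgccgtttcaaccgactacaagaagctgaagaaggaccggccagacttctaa
Ndufa4: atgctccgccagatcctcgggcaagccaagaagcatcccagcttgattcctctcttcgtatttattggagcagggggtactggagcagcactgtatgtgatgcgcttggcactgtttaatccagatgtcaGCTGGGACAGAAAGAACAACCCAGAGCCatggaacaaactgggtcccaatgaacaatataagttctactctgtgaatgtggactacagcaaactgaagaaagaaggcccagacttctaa
The next longest shared runs between a gene and its paralog were 23 bases for Olfr558 and Olfr78, 14 for Cox4i2 and Cox4i1, 12 for Higd1b and Higd1a and 11 for Map3k7cl and Map3k7.

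Higd1a, the widely expressed member of the HIG1 family, averaged 48.0 ± 3.62 CPM in vcaf, 61.0 ± 16.4 in icaf, 40.4 ± 3.30 in m2cafpos and 40.2 ± 1.66 CPM in m2cafneg. Its log2 fold change was 0.06 (SE 0.12, limma adjusted p = 0.680), but -0.35 (adjusted p = 0.0337) with median-of-ratios scaling, so its direction rests on the scaling. Per kilobase of all annotated exons, Higd1b was 33.5-fold to 41.2-fold Higd1a in vcaf, and at most 39.2% of it in any other library. In CPM the ratio in vcaf was smaller, with a mean of 505 for Higd1b against 48.0 for Higd1a. Map3k7 averaged 10.6 ± 1.33 CPM in vcaf, against 9.43 ± 0.458 in icaf, 9.51 ± 0.413 in m2cafpos and 7.53 ± 1.32 CPM in m2cafneg (log2 fold change 0.25, SE 0.13, limma adjusted p = 0.0978; -0.13, adjusted p = 0.396, with median-of-ratios scaling). Map3k7cl was 44.5-fold to 57.0-fold Map3k7 per kilobase in vcaf and below it in every other library. In CPM the vcaf means were 135 for Map3k7cl and 10.6 for Map3k7.

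**Figure D3:**
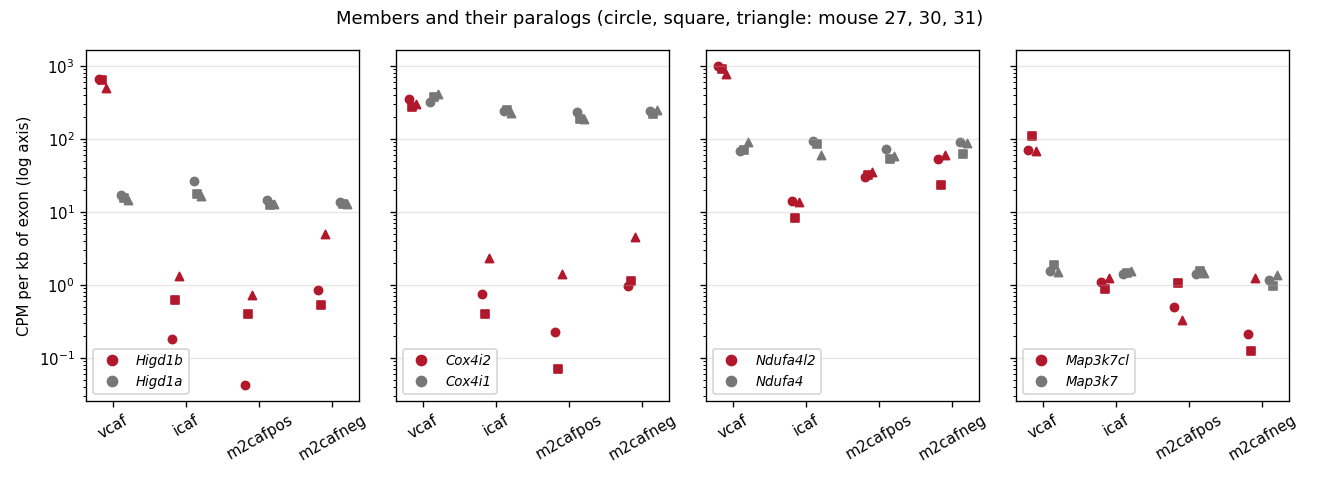
CPM per kilobase of exon, on a log axis, of 4 of the genes (red) and their paralogs (grey) in the 12 libraries, by population and with 1 symbol per mouse. The red points stand highest in vcaf. Cox4i2 and Cox4i1 averaged 311 and 368 CPM per kb of all annotated exons there.

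Olfr78, a receptor of the same family as Olfr558 that is known from vessels and the carotid body, reached 1 CPM in the vcaf libraries alone. It had 27.99, 33.1 and 20.5 CPM in vcaf, 0, 0.0393 and 0.693 CPM in icaf, 0.0361, 0 and 0 CPM in m2cafpos, and 0, 0 and 0.779 CPM in m2cafneg. Since it passed the filter only through vcaf, its difference is given here as values without a test. The count of neighbours below still holds it among the genes called higher, a call that this filter favours. It lies on chromosome 7 from 102738511 to 102759471 on the minus strand, its start 36.3 kb after that of Olfr558. The table holds 1410 Olfr genes, of which 454 had a read in any library, 6 passed the filter and 2 averaged 10 CPM or more in a population, Olfr558 and Olfr78.

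Low reads were also seen in receptor genes around them. Within 200 kb of the Olfr558 start, a window chosen after the values were seen, lie 27 Olfr genes including Olfr558; 20 had a read in the 3 vcaf libraries and 14 in the 9 others. Olfr557, which starts 6.30 kb before Olfr558, had 29 reads in vcaf and 0 elsewhere. Olfr33, Olfr559 and Olfr560, which start 9.94, 21.0 and 49.6 kb after it, had 30, 83 and 74 reads in vcaf and 0 in the 9 other libraries, and Olfr561, at 69.0 kb, had 127 reads in vcaf and 9 elsewhere. All 5 stayed under 1 CPM on average in vcaf, far from the 44552 reads of Olfr558 itself. Olfr550, at 131 kb before, went the other way, with 19 reads in vcaf and 625 elsewhere, mostly in m2cafneg at 2.87 CPM. These genes were named for their counts and were not tested, and a count of 0 allows up to 3 reads, 0.0542 to 0.0683 CPM, in a library.

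**Figure D4:**
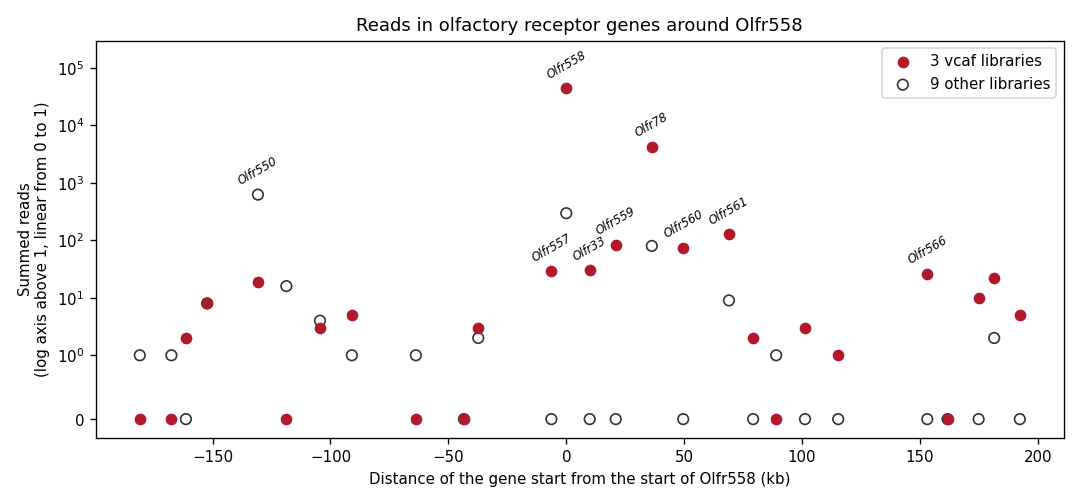
Summed reads of each Olfr gene within 200 kb of Olfr558, in the 3 vcaf libraries (filled) and the 9 others (open), by distance of gene starts in kb; the axis is logarithmic above 1 and linear from 0 to 1. From Olfr557 to Olfr561 the filled points lie above the open ones, while Olfr550 is reversed, with 19 against 625 reads.

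The nearest filtered gene on each side of each of the 8 was tested in the same way. Of 16 neighbours, 13 were higher in vcaf, 0 lower and 3 not called (median 0.90, against 0.38 over all genes), against 8 higher after median-of-ratios scaling, 1 lower and 7 not called (median 0.57, against 0.02). Over all 15456 genes tested, 53.3% were higher and 14.2% lower, or 3648 and 3797 genes with that scaling. Of the 16, 3 (Kbtbd13, Olfr78 and Stac3) passed the filter only through vcaf, with fewer than 3 other libraries at 1 CPM, which favours a higher call. Gjc1, which encodes the gap junction protein connexin 45 and lies 16148 bases before Higd1b, averaged 207 CPM in vcaf against 6.26 to 7.59 CPM in the others (log2 fold change 4.73, SE 0.15, limma adjusted p = 1.8e-10). Bcl2l1, a survival factor 15630 bases after Cox4i2, had 1.71 (SE 0.22, adjusted p = 3.3e-05). Snx33, beyond Cspg4, was at -0.27 (adjusted p = 0.102), and at -0.67 (adjusted p = 0.00192) with median-of-ratios scaling.

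Of 18 other pericyte genes, 17 were higher in vcaf and 1 lower, with a median log2 fold change of 4.99. Gucy1b1, a subunit of soluble guanylate cyclase, had 4.34 (SE 0.12, limma adjusted p = 9.4e-11), Art3, an ADP-ribosyltransferase, 5.24 (adjusted p = 1.5e-10), the laminin-binding integrin gene Itga7 6.99 (1.7e-09) and Rgs4 5.66 (2.2e-09). The lower one was Anpep, which encodes the aminopeptidase CD13, at 252 CPM in vcaf, 417 in icaf, 305 in m2cafpos and 314 CPM in m2cafneg (-0.44, adjusted p = 0.00422); it was named for its direction. Of 13 smooth muscle genes, 12 were tested and 12 were higher (median 4.54), among them the myosin light chain gene Myl9 (4.58, adjusted p = 3.3e-11); 11 were with median-of-ratios scaling. Of the 12, 2 (Casq2 and Myocd) passed the filter only through vcaf. Both counts stand beside 53.3% of all genes higher and 14.2% lower, with a median of 0.38. With median-of-ratios scaling, 3648 of 15456 genes were higher and 3797 lower.

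Of 11 common complex IV subunits, 10 were higher in vcaf, 0 lower and 1 (Ndufa4) not called (median 0.62), but with median-of-ratios scaling only 5 were (median 0.21). The share of all 15456 genes called higher was 53.3%, or 3648 genes with that scaling. Cox8a had 0.90 (SE 0.10, limma adjusted p = 7.2e-06; 0.48 with that scaling). Of 4 other tissue isoforms, Cox7a1 at 1.15 (adjusted p = 4.9e-05) and Cox6b2 at 1.02 (adjusted p = 0.000367) were higher and 2 were not tested, and Cox7a1 averaged only 3.96 CPM in vcaf. In the HIG1 family, Higd2a was at 0.42 (adjusted p = 0.00263) and at 0.01 (0.930) with median-of-ratios scaling, and Higd1c had no read.

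Hypoxia genes were tested because Ndufa4l2 and Higd1b are named for or known from low oxygen. Epas1, which encodes HIF-2 alpha, averaged 633 ± 44.1 CPM in vcaf, 18.4 ± 9.22 in icaf, 36.8 ± 4.50 in m2cafpos and 50.5 ± 16.8 CPM in m2cafneg, or 4.29 on the log2 scale (SE 0.24, limma adjusted p = 1.9e-08). Hif1a was at 0.72 (adjusted p = 0.000264) and Arnt, their common partner, at -0.08 (0.480; -0.49, adjusted p = 0.00131, with median-of-ratios scaling). Of 12 hypoxia target genes, 8 were higher, 1 lower and 3 not called (median 0.79), or 5, 2 and 5 with that scaling. Among all 15456 genes, 53.3% were higher and 14.2% lower, or 3648 and 3797 genes with that scaling. Of the 12, 1 (Ankrd37) passed the filter only through vcaf. The prolyl hydroxylase gene Egln3 (1.98, adjusted p = 0.000216) was higher, while Adm, which encodes the vasodilator adrenomedullin, was lower, at 19.6 CPM in vcaf, 784 in icaf, 64.1 in m2cafpos and 213 CPM in m2cafneg (-3.36, adjusted p = 1.9e-06).

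Slc2a4, which encodes GLUT4, had 64.6, 68.7 and 55.5 CPM in vcaf, 0.931, 0.216 and 0.851 CPM in icaf, 0.397, 1.28 and 0.615 CPM in m2cafpos, and 1.35, 1.87 and 3.99 CPM in m2cafneg (log2 fold change 4.93, SE 0.24, limma adjusted p = 5.5e-09). Every vcaf library was at 55.5 CPM or more and every other one at 3.99 or less. Of 9 genes of the list, 8 were higher and 1 not called (median 0.85), or 6 and 3 with median-of-ratios scaling; Tbc1d1, a RAB GTPase-activating protein, was at 2.99 (adjusted p = 1.9e-07) and Sort1, which encodes sortilin, at 2.64 (1.7e-05). Of 7 tested dispanins of 10, 4 were higher, 2 lower and 1 not called (median 0.36), or 2, 2 and 3 with that scaling. Both lists stand beside 53.3% of all genes higher and 14.2% lower, with a median of 0.38. The count of higher dispanins and their median were near these, so neither is particular to the family. The interferon-induced Ifitm1 was at 4.43 (limma adjusted p = 1.4e-06) and Syndig1 at -1.47 (0.000618).

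Of 8 small RAS-like GTPase genes beside Rasl12, 7 were tested, 5 were higher and 2 lower (median 1.86), with 2 (Rasd2 and Rergl) passing the filter only through vcaf. Rasl11a led at 86.1 CPM in vcaf, 7.75 in icaf, 6.50 in m2cafpos and 4.54 CPM in m2cafneg (3.60, limma adjusted p = 3.3e-07). Of 6 genes of the TAK1 complex, 5 were higher and 1, Map3k7, was not called (median 0.58), or 2 after median-of-ratios scaling, with the ubiquitin ligase gene Traf6 at 0.93 (adjusted p = 4.5e-05). Beside each count of this paragraph stand 53.3% of all genes higher and 14.2% lower, with a median of 0.38. With that scaling, 3648 of 15456 genes were higher and 3797 lower. Of 5 other chondroitin sulfate proteoglycans, 2 were tested: Vcan, which encodes versican, was lower in vcaf (-2.80, adjusted p = 1.5e-07) and Cspg5, called higher, passed the filter only through vcaf and lost the call with that scaling (adjusted p = 0.105). The 3 genes of receptor signalling, Gnas, Gnal and Adcy3, were called higher. Olfr78, which passed the filter only through vcaf, is not counted with them. Adcy3 lost the call with that scaling (limma adjusted p = 0.103). Gnas, the stimulatory G protein alpha subunit gene, had 1.44 (adjusted p = 1.3e-05). Each of these counts in vcaf was the same without the m2cafneg library of mouse 31.

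**Figure D5:**
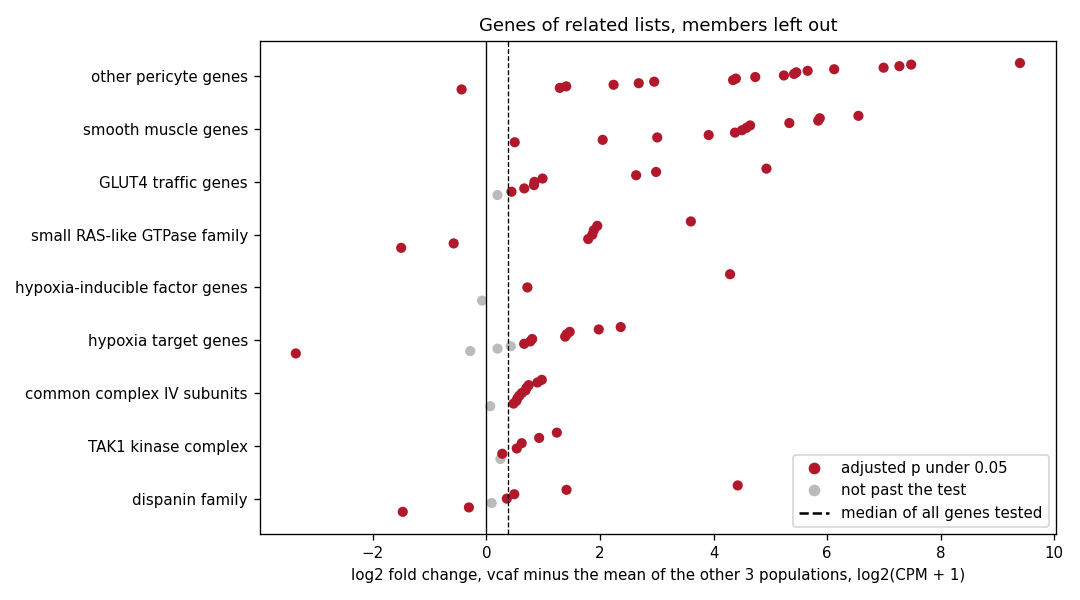
Log2 fold change between vcaf and the mean of the other 3 populations, on the log2(CPM + 1) scale, for the tested genes of 9 lists; red passed an adjusted p of 0.05, grey did not, and the dashed line is the median of all genes, 0.38. Pericyte and smooth muscle genes lie mostly beyond 2, and complex IV subunits from 0.07 upward and below 1.

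Profiles of log2(CPM + 1) over the 12 libraries were set by Pearson correlation against the mean of the 8 profiles, each centred and scaled. Only filtered genes that averaged at least 10 CPM in a population were ranked, and numbered gene models were left out. Among these, the 10 most like the mean were Tmem273, Bcar3, Itga7, Hey2, Tmem38b, Synpo2, Fhl5, Ephx3, Trpc6 and Adra2b, with r from 0.994 down to 0.991. The points share 3 mice and 4 populations, so r is a description. Scaling each profile removes the size of the gap, so a high r does not mean near absence outside vcaf. Tmem38b averaged 71.8 CPM in vcaf, 10.8 in icaf, 11.4 in m2cafpos and 13.9 CPM in m2cafneg. Among the 8, r with that mean was highest for Rasl12 at 0.995 and lowest for Cspg4 at 0.834. Each of the 8 is itself part of that mean, and the choice of genes favours a high r. Their r values are therefore not comparable with those of the 10. Tmem273 averaged 86.2 ± 9.60 CPM in vcaf, 0.0590 in icaf, 0.127 in m2cafpos and 0.677 CPM in m2cafneg. Trpc6, a calcium-permeable channel gene, averaged 154 ± 30.9 CPM in vcaf and at most 1.22 CPM in any other library, and Adra2b, an adrenergic receptor gene, 71.9 ± 11.7 CPM in vcaf and at most 0.950 CPM in any other library.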

How the data were processed

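RNA sequencing was deposited by the authors as 1 table of CPM (read counts scaled to a common library total) per gene for 12 libraries. Per the submitters' processing notes, bcl2fastq and DRAGEN were used with mm10; versions, the counting method, its use of strand and the annotation release were left unstated (not given in the sources used here). The title 27_vacf was read as vcaf of mouse 27. Of 55774 lines, 287 repeat an identifier with 0 differing values, leaving 55487 genes, of which 19288 had no read. CPM steps gave whole reads (within 0.001 read) for 100% of values; library totals were 43898839 to 55363203, and intervals cover counting error only.

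The 15456 genes that reached 1 CPM in 3 or more libraries were tested with limma 3.58.1 in R 4.3.3 on log2(CPM + 1), all 12 libraries in 1 fit, with Benjamini-Hochberg adjustment over those genes and a threshold of 0.05. Fold changes on that scale understate changes of low genes. edgeR 4.0.16 and DESeq2 1.42.0 on the recovered reads were alternatives, and edgeR called 7248 genes for vcaf against the rest and 2088 for m2cafpos against m2cafneg. The scripts were tested on simulated data. Replicate numbers are mouse names given in the labels, so they pair libraries. The main fit left this pairing out, and a fit with the mouse as a block was run as an alternative. Deviations from the population mean correlated with a median r of 0.293 within the same mouse (0.0843 to 0.452 over 18 pairs). Those of different mice had a median of -0.149 (-0.363 to 0.0746 over 36). Centring over 3 mice largely fixes that value once the same-mouse value is given, so it adds no separate evidence. With 3 mice, p-values measure the spread between these mice. Positions and exon lengths are from the GENCODE annotation on GRCm38 (99.53% of identifiers matched) and promoters from RefSeq. The genes, lists and rules were chosen with earlier results of these data known. Named were the 8 genes, their paralogs and neighbours, the genes of the sort, up to 4 genes per list by adjusted p, and the 10 most alike; others are said to be chosen after their values were seen.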

Additional observations from a re-analysis of the deposited data

How the results depend on the processing

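The calls made for the 8 genes kept their direction under all alternatives run, and their side of the threshold except where given above; with the mouse as a replicate block, Cox4i2 was -0.85 in m2cafpos against m2cafneg (adjusted p = 0.0228) and no other call of a single named gene changed. List counts moved by at most 2 genes in either direction under the block: in vcaf 9 GLUT4 traffic genes, 9 hypoxia targets and 8 endothelial markers were higher. Counts of called genes depended on scaling. For vcaf against the rest, 8238 genes were higher and 2193 lower; TMM gave 3680 and 3759, median-of-ratios 3648 and 3797, edgeR 3665 and 3583, and DESeq2 3742 and 3855. For m2cafpos against m2cafneg, 542 were higher and 3499 lower; TMM gave 1195 and 1385, median-of-ratios 1358 and 1280, edgeR 952 and 1136, DESeq2 1516 and 1617, and every gene with a read 2231 lower; leaving out 1 library gave 300 to 565 higher and 1941 to 3654 lower. For icaf against m2cafneg, 1356 were higher, 2108 with median-of-ratios and 2256 with DESeq2, and 906 to 1426 without 1 library. For icaf against m2cafpos, 2322 were higher, and 1527 with TMM, 1479 with median-of-ratios and 1424 with edgeR, 1596 to 2453 without 1 library. The share of calls that were higher was 13.4% in m2cafpos against m2cafneg (51.5% with median-of-ratios), 29.5% in icaf against m2cafneg (45.4%) and 62.9% in icaf against m2cafpos (44.8%). The cause was not tested.

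Paralogs changed sign in vcaf with TMM, median-of-ratios, edgeR and DESeq2: Higd1a was -0.34, -0.35, -0.36 and -0.37, Ndufa4 -0.34, -0.35, -0.35 and -0.36 (and -0.054 to 0.14 without 1 library), and Map3k7 -0.12, -0.13, -0.13 and -0.14. Uncalled values also changed sign. In m2cafpos against m2cafneg, Rasl12 (-0.04) was 0.043 with a pseudocount of 0.1 CPM, 0.12 with TMM, 0.14 with median-of-ratios and 0.032 with DESeq2, and -0.39 to 0.40 without 1 library, and Map3k7cl (0.22) was -0.037 to 0.64 without 1 library. In icaf against m2cafneg, Olfr558 (-0.07) was 0.0012 with median-of-ratios, and without 1 library Olfr558 was -0.39 to 0.36, Trarg1 -0.90 to 0.11 and Rasl12 -0.71 to 0.075. Depth limits the lowest values: Higd1b rested on 2 reads in m2cafpos of mouse 27 and Cox4i2 on 3 in m2cafpos of mouse 30.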
